A study of Arabidopsis thaliana with 28 samples.

Results

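COR15A, COR15B, COR47 and LTI30 are 4 genes of the cold and dehydration response of Arabidopsis thaliana. Each was followed on 1 probe set that the array annotation pairs with that gene alone: 263497_at for COR15A (AT2G42540), 263495_at for COR15B (AT2G42530), 259570_at for COR47 (AT1G20440) and 252102_at for LTI30 (AT3G50970). They are 4 of 22746 probe sets that are not array controls, and all 4 passed the filter on dim signals, COR15A and COR15B through their shoot signals alone. Col-0 plants (stock N1092) on Murashige and Skoog medium were wounded with pins on day 16, when 3 h of a 16 h light period had passed. Shoots and roots were taken 0.25, 0.5, 1, 3, 6, 12 and 24 h later, which gives 14 groups of 2 arrays. Every group used here came from wounded plants; unwounded plants were not analysed here, so the hours after wounding and the hour of the day cannot be told apart, although 24 h and 0.25 h lie at nearly the same hour. The labels name neither the organ that was punctured nor how many plants made up a sample.

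COR15A and COR15B encode small hydrophilic proteins of the chloroplast stroma that belong to the late embryogenesis abundant proteins and protect chloroplast membranes when cells freeze or dry. COR47 and LTI30 encode dehydrins, proteins that are largely unfolded in water and gather in cells that lose water; COR47 is an acidic dehydrin, and LTI30 binds membrane lipids. All 4 are known as targets of the CBF (DREB1) transcription factors, which act within the cold response, and of abscisic acid, the hormone of water shortage.

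The values are MAS5 signals on a linear scale, which were already scaled to a common level on all 28 arrays. Log2 changes below are differences of group means of log2(signal + 10.7), with their SE and adjusted p from limma's moderated test over 16261 probe sets. A call is an adjusted p under 0.05, and the offset understates changes of weak signals. Nothing in the labels says that the 2 arrays of a group came from separate plantings, so the tests measure the spread between arrays, which may be technical. The labels of the organs held up on markers: the summed signal of 5 photosynthesis genes was 17979 to 28654 on shoot arrays and 223 to 591 on root arrays, and that of 4 root genes (EXPA7, EXPA18, LBD16 and PYK10) was 617 to 1968 on shoot arrays and 2994 to 4184 on root arrays. On shoot arrays PYK10 made up most of the root sum. At 1 and 3 h 3 of the 4 root genes were called lower in shoots than in roots, where 44.3% and 42.3% of all probe sets were. All 4 were at the other times. The 24 h shoot arrays stood apart in the 3′ to 5′ signal ratio of the actin controls, a sign of RNA quality, at 4.15 to 6.17 against 2.22 to 3.68 on the other shoot arrays. Changes against 24 h are therefore set beside changes against 0.25 h and from each time to the next.

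COR47 rose in shoots over both of the first 2 steps and peaked at 1 h. Its signals in shoots were 866 and 726 at 0.25 h, 1488 and 1583 at 0.5 h, 3847 and 4037 at 1 h, 2095 and 1937 at 3 h, 669.9 and 672 at 6 h, 345 and 326 at 12 h, and 269 and 216 at 24 h. The 2 arrays of each time lay close together, and both arrays at 1 h stood above all others. COR47 was higher at 0.5 h than at 0.25 h by 0.94 ± 0.20 (adjusted p = 0.00775), higher at 1 h than at 0.5 h by 1.35 ± 0.20 (adjusted p = 4.92e-05) and lower at 3 h than at 1 h by a log2 change of -0.96 ± 0.20 (adjusted p = 0.000919). Its highest mean, at 1 h, thus differed from those on both sides. The step to 0.5 h was no longer called without replicate 2 of shoots at 0.25 h (adjusted p = 0.0815) or without replicate 2 at 0.5 h (adjusted p = 0.0856). The decline went on at 6 h (-1.57 ± 0.20 against 3 h, adjusted p = 1.84e-05) and 12 h (-0.98 ± 0.20 against 6 h, adjusted p = 0.00246), where its mean was 8.52% of the highest mean. COR47 alone of the 4 passed the test for an end below its first level. At 24 h it was lower than at 0.25 h by a log2 change of -1.67 ± 0.20 (adjusted p = 2.58e-06), and at 12 h by -1.22 ± 0.20 (adjusted p = 7.4e-05). The actin ratios were 2.77 and 3.53 at 0.25 h, 3.00 and 3.68 at 12 h and 6.17 and 4.15 at 24 h. The 12 h arrays lie at another hour of the day than those of 0.25 h. The part of RNA quality or of the hour in these differences was not tested.

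LTI30 made most of its rise between 0.5 and 1 h. Its shoot signals were 21.6 and 62.7 at 0.25 h, 108 and 74.2 at 0.5 h, 607 and 1027 at 1 h, 642 and 682 at 3 h, 145.7 and 148 at 6 h, 29.0 and 29.9 at 12 h, and 27.4 and 27.2 at 24 h. The arrays at 1 and 3 h overlapped each other and lay above all the rest. From 0.5 h to 1 h LTI30 rose by 3.00 ± 0.33 (adjusted p = 3.27e-06). At 0.5 h it already stood above 24 h by 1.40 ± 0.33 (adjusted p = 0.00386), a call lost without replicate 1 of shoots at 0.5 h (adjusted p = 0.0549), while the difference between 0.5 h and 0.25 h was 1.04 ± 0.33 (adjusted p = 0.0953). That difference was called without replicate 2 of shoots at 0.25 h (1.64, adjusted p = 0.00645) and without replicate 1 or 2 of roots at 24 h (adjusted p = 0.0393 and 0.0392), so LTI30 and COR47 cannot be ranked by their first rise. Between 3 h and 1 h the difference was -0.25, with a 95% interval of -0.94 to 0.44 (adjusted p = 0.624), so its peak is placed at 1 to 3 h. LTI30 then fell steeply, by 2.09 ± 0.33 at 6 h against 3 h (adjusted p = 0.000349) and by 1.97 ± 0.33 at 12 h against 6 h (adjusted p = 0.000532). At 12 h it differed from 24 h by 0.08, with a 95% interval of -0.61 to 0.76 (adjusted p = 0.904).

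COR15A had the largest rise of the 4. Its shoot signals were 32.7 and 99.9 at 0.25 h, 70.1 and 67.7 at 0.5 h, 1399 and 1648 at 1 h, 3700.1 and 3246 at 3 h, 1194 and 832 at 6 h, 123 and 88.5 at 12 h, and 44.9 and 50.5 at 24 h. The arrays at 1, 3 and 6 h stood far above those of the 4 other times. Between 0.25 and 0.5 h no change passed the test (0.20 ± 0.46 for 0.5 h against 0.25 h, adjusted p = 0.907), and from 0.5 h to 1 h COR15A rose by 4.26 ± 0.46 (adjusted p = 4.89e-06). The mean was highest at 3 h, at 72.8 times the mean signal of 24 h, but the step from 1 h to 3 h was 1.18 ± 0.46 (adjusted p = 0.0654). Under 8 of the alternatives, among them plain eBayes and the fit on shoots alone, that step was called (adjusted p = 0.0309 to 0.045). At 6 h COR15A was lower than at 3 h by a log2 change of -1.79 ± 0.46 (adjusted p = 0.018), a call lost when 1 of 3 arrays was left out (replicate 1 or 2 of shoots at 3 h or replicate 2 at 6 h, adjusted p = 0.107, 0.0687 and 0.139) and with log2(signal + 1) (adjusted p = 0.302). It fell further by 3.13 ± 0.46 at 12 h against 6 h (adjusted p = 0.000233, but 0.0606 with log2(signal + 1)). At 12 h it stood 0.98 ± 0.46 above 24 h (adjusted p = 0.152).

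COR15B, the close relative of COR15A, rose in 2 steps and was still above 24 h at 12 h. Its shoot signals were 18.3 and 55.4 at 0.25 h, 22.5 and 35.0 at 0.5 h, 101 and 129 at 1 h, 572 and 488 at 3 h, 757 and 665 at 6 h, 130.3 and 109.8 at 12 h, and 28.2 and 27.4 at 24 h. Both arrays at 6 h lay above both at 3 h, and those at 1 and 12 h overlapped. COR15B rose by 1.68 ± 0.25 at 1 h against 0.5 h (adjusted p = 5.64e-05) and by 2.11 ± 0.25 at 3 h against 1 h (adjusted p = 1.61e-06). The 6 h mean was the highest, but its difference from 3 h was 0.42, with a 95% interval of -0.11 to 0.94 (adjusted p = 0.315), so its peak is placed at 3 to 6 h. COR15B fell by 2.47 ± 0.25 at 12 h against 6 h (adjusted p = 8.15e-07) and by 1.76 ± 0.25 at 24 h against 12 h (adjusted p = 2.51e-05). Over that last step COR47 changed by -0.46 ± 0.20 (adjusted p = 0.119), which was called in the fit on shoots alone (adjusted p = 0.0274) and without either array of roots at 24 h (adjusted p = 0.0234). The differences between the genes in this step were not tested.

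**Figure D1:**
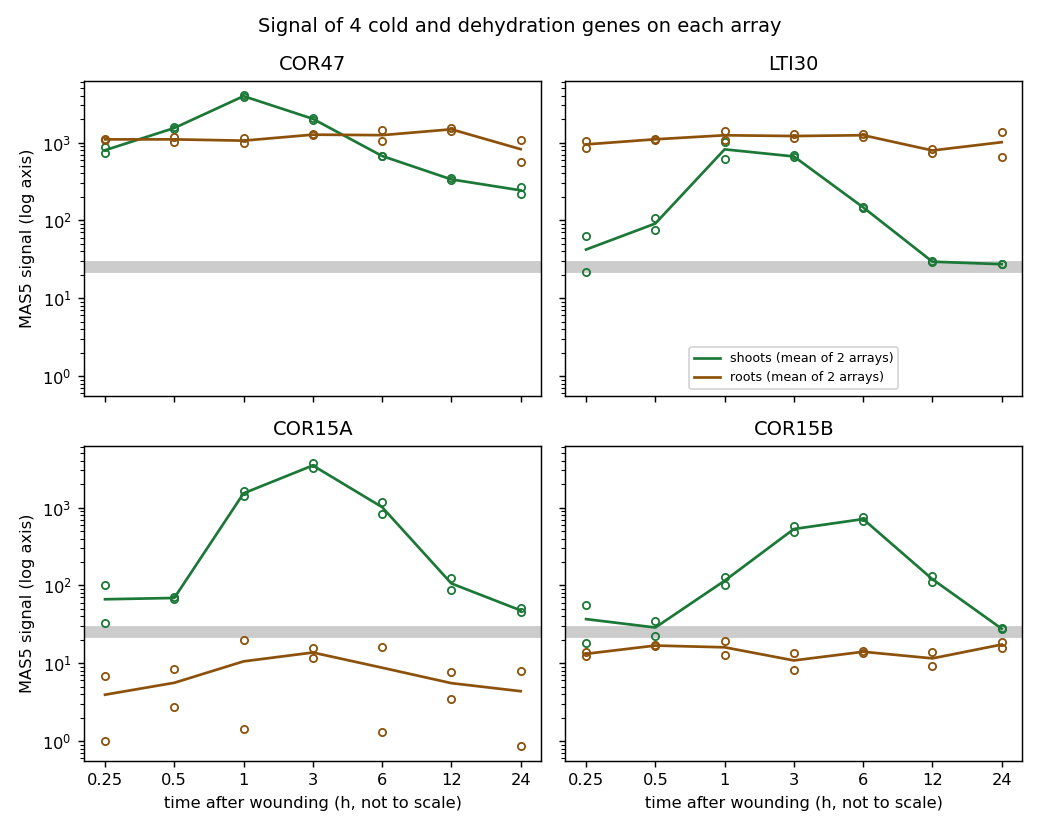
MAS5 signal (log axis) of COR47, LTI30, COR15A and COR15B at each time after wounding in hours, in shoots (green) and roots (brown); circles are single arrays, lines join means of 2 arrays, and the grey band spans the 40th percentiles of the 28 arrays. In shoots each gene makes a single wave, highest at 1 h for COR47 and LTI30, 3 h for COR15A and 6 h for COR15B, while root signals of COR47 and LTI30 stay between 557 and 1539 and those of COR15A and COR15B stay below the band.

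At 0.25 h the first level of 3 genes rested on 2 arrays that disagreed. Replicate 2 of shoots at 0.25 h was 3.05, 3.02 and 2.91 times replicate 1 for COR15A, COR15B and LTI30, and 0.838 times for COR47. Without replicate 1, COR15B (0.78 ± 0.21, adjusted p = 0.0142) and LTI30 (0.95 ± 0.31, adjusted p = 0.0431) passed the test against 24 h at 0.25 h. An onset before 0.5 h was therefore not resolved for these genes.

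Against 24 h, 1 of the 4 genes was higher in shoots at 0.25 h (COR47), where 9.94% of all probe sets tested were higher, and 2 were at 0.5 h (COR47 and LTI30), where 11.0% were. At 1, 3 and 6 h all 4 were higher, against 14.5%, 11.4% and 13.0% of all probe sets, and at 12 h only COR15B was, against 10.3%. The median change of the 4 genes at these 6 times was 0.30, 0.92, 4.18, 3.98, 3.08 and 0.72, and that of all probe sets lay between -0.09 and 0.05. Against 0.25 h the same window appeared: 1 gene (COR47) was higher at 0.5 h (1.99% of all probe sets were), all 4 were at 1 h (11.8%) and at 3 h (17.0%), and 3 were at 6 h (19.8%). At 12 h COR15B was higher than at 0.25 h and COR47 lower, where 29.6% of all probe sets were called in either direction. At 24 h COR47 alone was lower than at 0.25 h (9.94%).

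All 4 genes rose in the step from 0.5 to 1 h, against 7.99% of all probe sets, with a median change of 2.34. From 1 to 3 h the genes parted, as COR15B rose (15.9% of all probe sets rose) and COR47 fell (11.9% fell). From 3 to 6 h 3 genes fell, against 5.72% of all probe sets. From 6 to 12 h all 4 fell, against 5.31%, with a median change of -2.22. The last step, from 12 to 24 h, had 1 call, the fall of COR15B (10.3% of all probe sets fell).

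**Figure D2:**
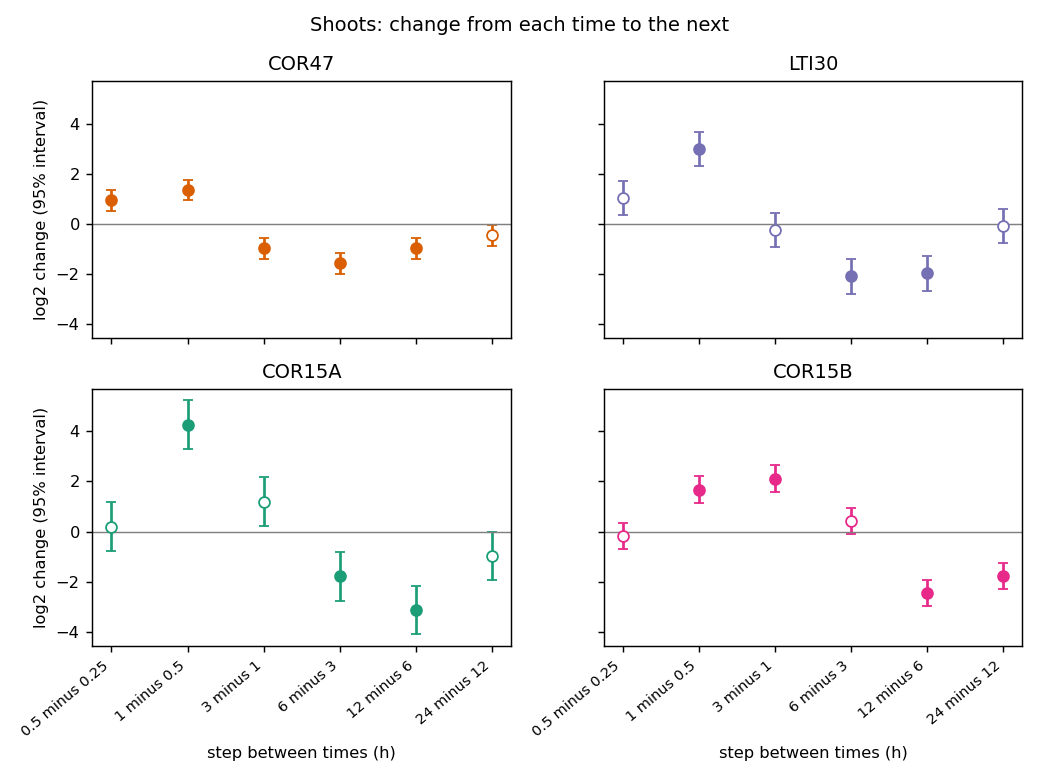
Log2 change in shoots over each step between neighbouring times, in hours, for COR47, LTI30, COR15A and COR15B; points are fitted changes with 95% intervals, filled where the adjusted p is under 0.05. All 4 genes rise at 1 h and fall at 12 h; COR47 already falls at 3 h, whereas COR15B still rises there.

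As a share of its highest shoot mean, COR47 stood at 39.0% at 0.5 h, LTI30 at 11.1%, COR15B at 4.04% and COR15A at 1.98%. At 3 h, COR47 had come down to 51.1% of its highest mean and LTI30 to 81.1%, while COR15B stood at 74.5% and COR15A at its highest. At 6 h COR15B was at its highest, COR15A was at 29.2%, LTI30 at 18.0% and COR47 at 17.0%. The order of the means was therefore COR47 and LTI30, then COR15A, then COR15B, although LTI30 at 1 and 3 h, COR15A at 1 and 3 h and COR15B at 3 and 6 h did not pass the test in the fit to all arrays.

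**Figure D3:**
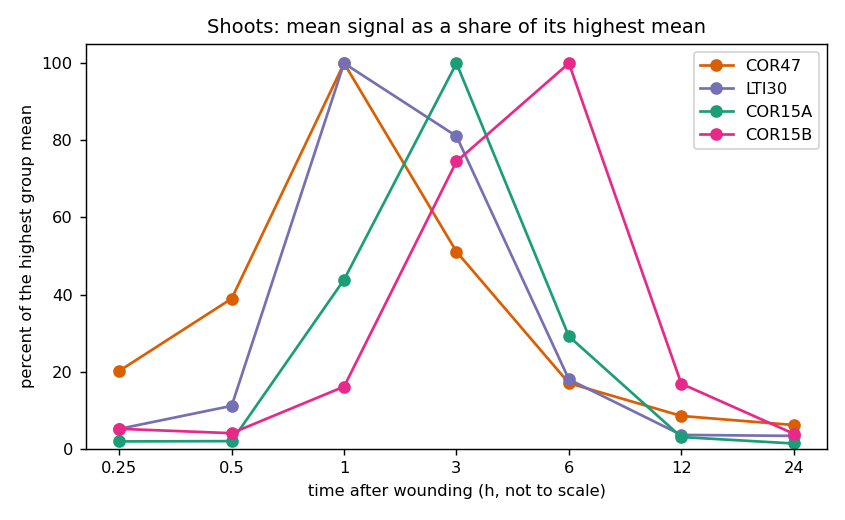
Mean shoot signal (2 arrays) of each gene as a percent of its highest group mean, against hours after wounding. COR47 and LTI30 are highest at 1 h, COR15A at 3 h and COR15B at 6 h, and at 12 h the 4 genes are between 3.05% and 16.9%.

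COR15A and COR15B are neighbours on the chromosome, with no protein-coding gene between them in the TAIR10.1 annotation, and encode like proteins. In shoots at 6 h both arrays of COR15A were below both of 3 h, and both arrays of COR15B were above. Between 6 h and 3 h, COR15A changed by -1.79, with a 95% interval of -2.76 to -0.82, and COR15B by 0.42, with a 95% interval of -0.11 to 0.94. Within single arrays, the log2 signal of COR15A minus that of COR15B was 0.65 and 0.32 at 6 h, against 2.67 and 2.71 at 3 h, a difference of -2.21. The 4 values did not overlap between the times, but with 2 arrays against 2 the exact two-sided permutation test cannot go below its value here, p = 0.333. Whether either probe set also reads RNA of the other gene was not tested.

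In roots the 4 genes formed 2 pairs. COR15A signals there were 0.851 to 19.7, with a median of 7.27, and COR15B signals 8.25 to 19.2, with a median of 13.8; on 0 of 14 root arrays did either exceed the 40th percentile of its array. The dehydrins were high throughout: COR47 ranged over 557 to 1539 with a median of 1119, and LTI30 over 658 to 1404 with a median of 1099.8. Over the 7 root times none of the 4 passed the F-test (adjusted p = 0.817 for COR15A, 0.783 for COR15B, 0.0535 for COR47 and 0.587 for LTI30), where 14.8% of all probe sets did. COR47 passed under 5 of 35 alternatives, among them quantile normalization (adjusted p = 0.0351) and leaving out replicate 1 of roots at 24 h (adjusted p = 0.000354). In shoots all 4 passed it (adjusted p = 8.79e-09, 3.65e-12, 3.72e-12 and 1.45e-09 in the same order), where 61.5% of all probe sets did.

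One root comparison passed for COR47. Its signals in roots were 1092 and 1102 at 0.25 h, 1012 and 1183 at 0.5 h, 1135 and 978 at 1 h, 1283 and 1239.8 at 3 h, 1040.3 and 1446 at 6 h, 1539 and 1416 at 12 h, and 1085 and 557 at 24 h. COR47 was higher at 12 h than at 24 h by 0.91 ± 0.20 (adjusted p = 0.00652), where 3.24% of all probe sets were higher. The 2 arrays of roots at 24 h differed by a factor of 1.95, and replicate 2 was the lowest of all 14 root arrays. Without that array the difference was 0.44 (adjusted p = 0.13), without replicate 1 of roots at 12 h it was 0.85 (adjusted p = 0.0809), and without replicate 1 of roots at 24 h COR47 was higher than at 24 h at all 6 times, by 0.91 to 1.39. Against 0.25 h COR47 did not pass at any root time, with 0.43 ± 0.20 at 12 h (adjusted p = 0.253).

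LTI30 signals in roots were 1047 and 845 at 0.25 h, 1108 and 1092 at 0.5 h, 1404 and 1074 at 1 h, 1153 and 1270.3 at 3 h, 1299.6 and 1182 at 6 h, 743 and 837 at 12 h, and 1361 and 658 at 24 h. Replicate 2 of roots at 24 h was again low, and the 24 h arrays spanned those of nearly all other times. The changes of LTI30 against 24 h lay between -0.26 and 0.38, and none passed the test.

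Between the organs, the COR15 genes were higher in shoots and LTI30 was lower, and COR47 turned over with time. COR15A and COR15B lay under the 40th percentile on all root arrays and entered the test through shoots, so their folds are lower bounds, set against the higher of that percentile and the root signal on each array. No p-value is set beside these bounds, because the shoot signals compared are those that passed the filter. COR15A was at least 2.08-fold higher in shoots than in roots at 0.25 h, 2.49-fold at 0.5 h and 56.6-fold at 1 h. It was at least 128-fold higher at 3 h, 36.3-fold at 6 h, 3.93-fold at 12 h and 1.65-fold at 24 h. COR15B was at least 4.24-fold higher in shoots at 1 h, 19.5-fold at 3 h, 25.9-fold at 6 h and 4.50-fold at 12 h. Its bound at 0.5 h was 1.01, where the fitted difference was not called. At 24 h its shoot signals, 28.2 and 27.4, lay under the root 40th percentiles of 29.0 and 28.8, so no bound was set. At 0.25 h replicate 1 of shoots was under its 40th percentile, so no bound was set there either. The fitted difference at 0.25 h was 0.87, and 0.28 without replicate 2 of shoots at 0.25 h.

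LTI30 was lower in shoots than in roots at 6 of 7 times, by a log2 difference of -4.29 ± 0.33 at 0.25 h and -4.65 ± 0.33 at 24 h. The call at 3 h (-0.86 ± 0.33, adjusted p = 0.0266) was lost without any 1 of the 4 arrays of that time (adjusted p = 0.0606 to 0.108). At 1 h, the time of its highest shoot mean, the difference was -0.63, with a 95% interval of -1.32 to 0.06 (adjusted p = 0.0929). It was called under 6 alternatives (adjusted p = 0.021 to 0.0499), with -0.90 under quantile normalization and -1.005 without replicate 2 of shoots at 1 h. For COR47 and LTI30 together 13 of 14 such differences between shoots and roots were called, where 71.4%, 70.9%, 70.4%, 67.5%, 65.9%, 70.7% and 71.4% of all probe sets were called at the 7 times, low to high.

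COR47 crossed over between the organs. At 1 h its signals were 3847 and 4037 in shoots, against 1135 and 978 in roots, a difference of 1.89 ± 0.20 (adjusted p = 3.11e-08). At 12 h they were 345 and 326 in shoots, against 1539 and 1416 in roots, a difference of -2.10 ± 0.20 (adjusted p = 5.95e-09). Shoots were also above roots at 0.5 h (0.48 ± 0.20, adjusted p = 0.0362) and 3 h (0.67 ± 0.20, adjusted p = 0.00566) and below them at 0.25, 6 and 24 h (-0.46, -0.86 and -1.64). With quantile normalization the differences at 0.5 h and 3 h were no longer called (adjusted p = 0.615 and 0.0876), and that at 0.5 h was also lost without any 1 of 3 arrays of that time (adjusted p = 0.0732 to 0.196). That at 0.25 h (adjusted p = 0.0447) had adjusted p of 0.0502 to 0.236 under the 20 alternatives that lost it, without replicate 2 of shoots at 0.25 h at the top.

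**Figure D4:**
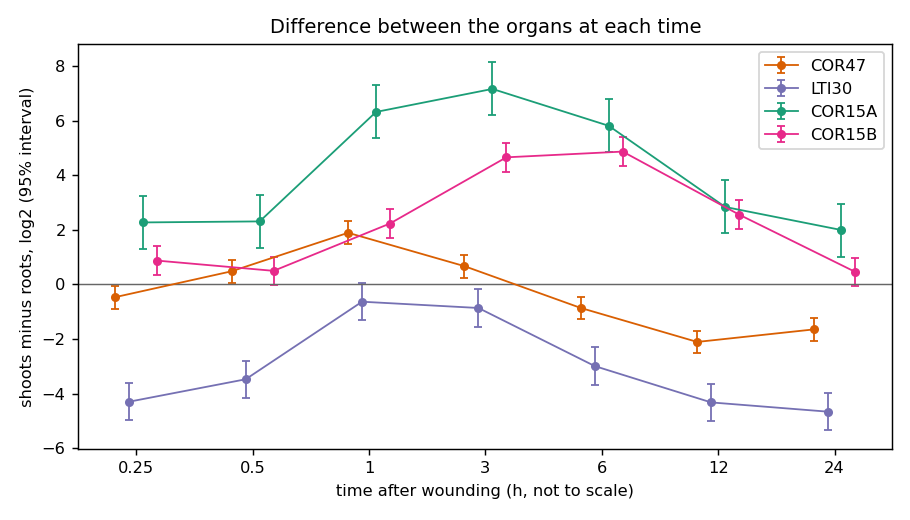
Log2 difference of shoots minus roots at each time after wounding in hours, with 95% intervals, for the 4 genes (points are set side by side at each time). COR15A and COR15B lie above the zero line, as fitted values against root signals under the 40th percentile; LTI30 lies below it and comes closest at 1 h (-0.63), and COR47 lies on either side of it, at 1.89 at 1 h and at -2.10 at 12 h.

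LTI30 was high in roots, so its shoot level is given here with that of the root markers. LTI30 in shoots was 4.45%, 8.27%, 65.9%, 54.7%, 11.9%, 3.72% and 2.71% of its mean in roots at the 7 times, low to high. The summed root markers in shoots were 20.2%, 19.3%, 21.7%, 32.0%, 41.2%, 43.5% and 45.9% of the sum in roots at the same times. That sum is carried by PYK10, which changed over time in shoots (F-test, adjusted p = 6.57e-10), with signals of 569.97 to 1922. EXPA7 and EXPA18 did not pass that test (adjusted p = 0.379 and 0.344), and LBD16, with its highest shoot mean at 1 h, did (adjusted p = 0.0334). The part of root tissue in the shoot values of LTI30 was not tested. In whole shoots and roots, fewer cells that hold an RNA and less RNA per cell cannot be told apart.

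The changes of COR47 and LTI30 differed between shoots and roots. The F-test on the 6 differences of changes against 24 h passed for both (adjusted p = 5.83e-09 and 2.32e-06), where 42.3% of all probe sets passed. At single times COR47 had a larger change in shoots at 0.25 h (5.04% of all probe sets did) and 0.5 h (6.23%), both genes did at 1 h (8.84%) and 3 h (5.03%), and LTI30 did at 6 h (7.31%). Neither COR47 nor LTI30 was called at 12 h (6.56% of all probe sets had a larger change in shoots). For COR15A and COR15B the root values lie under the 40th percentile, and both genes entered the test through shoots. Their differences of changes follow the shoot changes given above and are not read as tests. The values at 1, 3 and 6 h, and for COR15B also at 12 h, are given below as description, without p-values. Against 0.25 h in place of 24 h, the change in shoots of both COR47 and LTI30 was larger at 1 h (6.21% of all probe sets) and 3 h (7.54%), and that of COR47 was lower than in roots at 12 h and 24 h (18.9% and 9.43% were called in either direction). Against 0.25 h LTI30 at 6 h did not pass (1.30 ± 0.46, adjusted p = 0.0658), nor did COR47 at 0.5 h (0.95 ± 0.28, adjusted p = 0.142). The call of COR47 at 0.25 h against 24 h was lost with quantile normalization (adjusted p = 0.0608) and without replicate 1 of roots at 24 h (adjusted p = 0.0597), and that of LTI30 at 6 h without any 1 of 5 arrays (adjusted p = 0.0588 to 0.114).

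Set among all 16261 probe sets tested, the span between the highest and lowest shoot mean was 5.90 for COR15A (rank 8), 4.39 for LTI30 (rank 90), 4.23 for COR15B (rank 101) and 3.97 for COR47 (rank 128), and the median span was 0.67. Root spans of the 4 were 0.76, 0.64, 0.39 and 0.91 in the same order, with a median of 0.42 over all probe sets. Across the 7 shoot means, the Pearson correlation was 0.92 between COR15A and LTI30, 0.87 between COR47 and LTI30, 0.84 between COR15A and COR15B, 0.65 between COR15A and COR47, 0.58 between COR15B and LTI30 and 0.23 between COR15B and COR47. These correlations describe 7 means from the same arrays.

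Genes whose course was most like each of the 4 were taken from 2436 probe sets with a span of at least 1, by the correlation of 14 group means after each organ was centred on its own mean. Nearest to COR15A were AT3G55760 (r = 0.97), RALFL31, a peptide of the RALF family (0.96), and AT2G38240 (0.95), all highest in shoots at 3 h. Nearest to COR15B were VPS20.1, a subunit of the ESCRT complex that sorts membrane proteins (0.96), FRA3, an inositol phosphatase (0.96), and AT1G34340 (0.96), all highest at 6 h. Nearest to COR47 were AT2G39130 (0.96), AT5G13200 (0.95) and AT5G43190 (0.95), and nearest to LTI30 were AT1G21790 (0.97), ATCES1, a ceramidase (0.96), and AT2G22080 (0.94), all highest at 1 h. The shoot spans of these genes were 1.11 to 4.42. As the genes were chosen by their course, the shared times of the highest mean follow from that choice.

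Other genes of the pathway could be followed only in part, because few have a probe set named for 1 gene here. Of 12 CBF and cold regulators and of 22 genes of abscisic acid synthesis, turnover and signalling, 0 had such a probe set. Of 22 other cold and dehydration effectors 3 had one and 2 passed the filter, and of 8 other dehydrins 4 had one and 2 passed. Both effectors, the cold-regulated genes COR27 and AT4G33980, had their highest shoot means at 6 h, the time of the highest mean of COR15B. Both entered the test through the times when they were high, and were under the 40th percentile on both shoot arrays of 0.25, 0.5, 1, 3 and 24 h, so changes among those times could not be measured and folds are lower bounds. No p-value is set beside these folds, because the high signals compared are those that passed the filter. COR27 signals in shoots were 134 and 181 at 6 h and 114 and 92.5 at 12 h, against 1.44 and 1.41 at 24 h. They were thus at least 6.41-fold and 4.22-fold higher. AT4G33980 was at least 5.49-fold higher in shoots at 6 h than at 24 h, and 2.14-fold at 12 h. Of all probe sets, 13.0% were higher than at 24 h at 6 h and 10.3% at 12 h. In roots, against 24 h, COR27 was at least 2.06-fold higher at 6 h and 1.84-fold at 12 h. AT4G33980 was at least 1.71-fold higher in roots at 3 h, 4.38-fold at 6 h and 3.71-fold at 12 h. Of all probe sets, 0.191%, 0.658% and 3.24% were higher in roots than at 24 h at 3, 6 and 12 h.

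Of the 2 other dehydrins, AT1G54410 rose in shoots with signals of 4746 and 4017 at 6 h, against 1909.6 and 2312 at 24 h (1.05 ± 0.14, adjusted p = 5.06e-06). It was also higher than at 24 h at 3 h (0.58 ± 0.14) and 12 h (0.42 ± 0.14, adjusted p = 0.0351), and not called at 0.25, 0.5 or 1 h or at any root time. AT4G38410 was not called against 24 h at any time in either organ, with shoot signals of 11.3 to 23.1 that passed the 40th percentile on 1 of 14 arrays. The clock gene GI (GIGANTEA), 1 of 10 clock genes with a probe set, was highest at 6 h in shoots. Its signals there were 379 and 365 at 6 h, against 78.0 and 56.1 at 24 h (2.31 ± 0.20, adjusted p = 9.94e-09). In roots GI was also called higher at 6 h than at 24 h, by 0.83, where 0.658% of all probe sets were. At 1 h against 0.5 h, the step in which COR15A, COR15B, COR47 and LTI30 all rose, AT1G54410 changed by 0.07 ± 0.14. GI changed by 0.48 ± 0.20 in that step, and neither passed the test (adjusted p = 0.81 and 0.115). GI was called higher in shoots at 1 h than at 0.25 h (0.56), where 11.8% of all probe sets were. It was also called higher at 3 h than at 1 h (0.74), where 15.9% were.

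**Figure D5:**
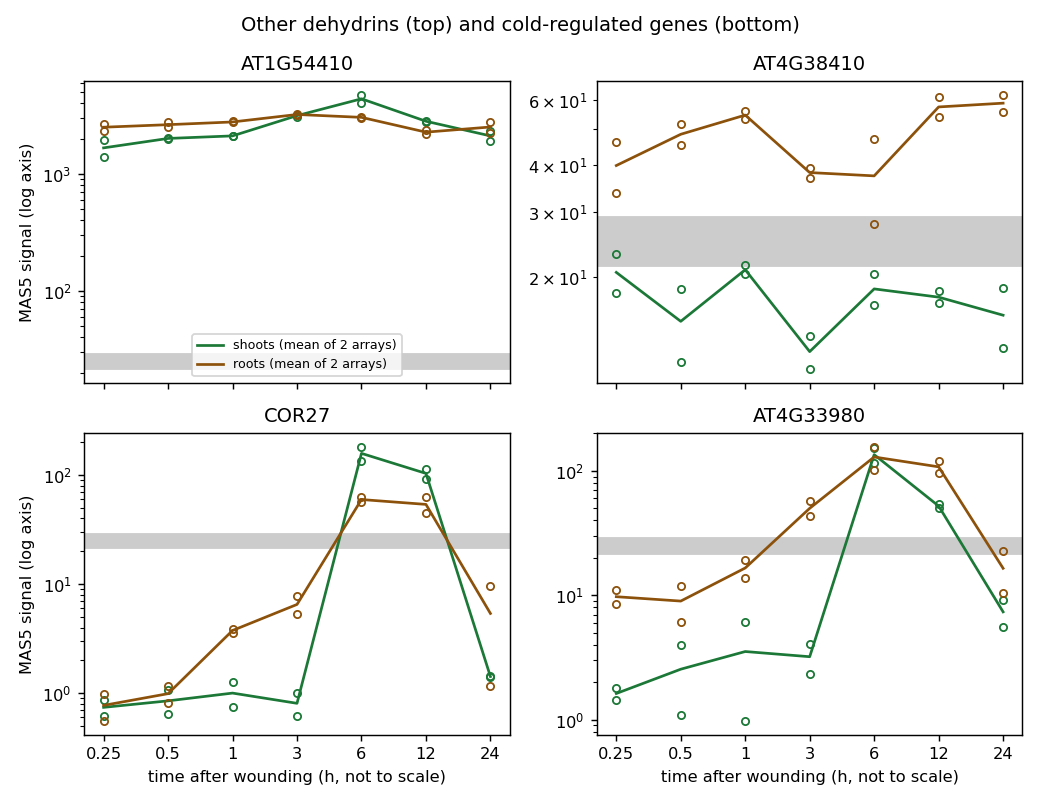
MAS5 signal (log axes, which differ between panels) of 2 other dehydrins and 2 other cold-regulated genes against hours after wounding, in shoots (green) and roots (brown); circles are single arrays, lines join means of 2 arrays and the grey band spans the 40th percentiles. COR27, AT4G33980 and AT1G54410 are highest in shoots at 6 h, and AT4G38410 stays below 24 in shoots.

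The neighbours of the 4 genes on the chromosomes were read from the TAIR10.1 annotation. COR47 lies next to ERD10 and LTI30 next to XERO1, both dehydrin genes that were not analysed here. Of the other genes within 2 protein-coding genes on either side, 3 had a probe set named for them alone that passed the filter. These were AT2G42520 beside COR15B, with a shoot span of 0.83, and AT1G20410 and AT1G20430 near COR47, with shoot spans of 0.40 and 0.61. None lay near LTI30. These spans were near the median of all probe sets, 0.67, and far below those of COR15A, COR15B and COR47.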

How the data were processed

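Total RNA of shoots and roots was measured on 28 Affymetrix ATH1 arrays. The deposited intensity values are linear MAS5 signals according to the submitters' processing notes, with no version given. Trimmed of 2% at each end, the mean signal was about 100.01 on every array, and the values were used as deposited.

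Of 22810 probe sets, 64 array controls were left out. A constant of 10.7, the 25th percentile of the signals, was added before log2 was taken. A probe set was tested if both arrays of some group had it above their 40th percentile, which held for 16261. R 4.3.3 and limma 3.58.1 fitted 14 group means with 14 residual degrees of freedom, and eBayes ran with trend and robust. P-values were adjusted by Benjamini-Hochberg across those probe sets, comparison by comparison. Each time was set against 24 h, against 0.25 h and against the time before, shoots were set against roots, and changes were compared between the organs. The alternatives tried were a filter at the 60th percentile or none, log2(signal + 1), quantile normalization, plain eBayes, fits within 1 organ, the replicate number as a block, 0.25 h as the reference, and leaving out each array. The fit was tested on simulated data.

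The annotation used pairs 13513 probe sets with 1 gene, 503 with several and 8730 with none, and only the first were named. The 4 genes and the gene lists were chosen with earlier results of these data known. Named beside them are the list genes with a probe set of their own and, for each of the 4, the 3 probe sets with the most similar course. The number of arrays limits the precision. Sequences and genome coordinates were not used here.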

Additional observations from a re-analysis of the deposited data

Results flagged for a closer look

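For COR47 and LTI30, the change against 24 h differed between shoots and roots in 7 of 12 tests of the difference itself. The change in shoots was larger in all 7. The share of all probe sets with a larger change in shoots was 5.04%, 6.23%, 8.84%, 5.03%, 7.31% and 6.56% at 0.25, 0.5, 1, 3, 6 and 12 h. The root signals of COR15A and COR15B were under the 40th percentile on every root array, and both genes entered the test through shoots. Their 7 values picked by the same test are fitted differences against dim signals that follow the shoot changes. They are not counted above and are given as description, without p-values. For COR15A the change in shoots minus that in roots was 4.32 ± 0.65 at 1 h, 5.16 ± 0.65 at 3 h and 3.82 ± 0.65 at 6 h. With log2(signal + 1) these values were 4.16, 4.31 and 3.72, each ± 1.45. For COR15B the values of 1, 3, 6 and 12 h were 1.77, 4.197, 4.41 and 2.101, each ± 0.36. For COR47 the values of 0.25, 0.5, 1 and 3 h were 1.18, 2.13, 3.54 and 2.32, each ± 0.28 (adjusted p = 0.0102, 2.04e-05, 4.29e-08 and 3.06e-05). For LTI30 it was 4.02 ± 0.46 at 1 h, 3.79 ± 0.46 at 3 h and 1.67 ± 0.46 at 6 h (adjusted p = 8.77e-06, 6.53e-05 and 0.023). The root changes behind these values lay between -0.39 and 0.73, and the shoot changes between 1.67 and 5.90. Against 0.25 h in place of 24 h, COR47 and LTI30 had 6 such calls of 12, 4 with the larger and 2 with the lower change in shoots, against 7 of 12 with 24 h.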

How the results depend on the processing

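Of 180 values of the 4 genes, 85 were called. The share of all probe sets called in these comparisons ran from 0.0492% (roots at 1 h against 0.5 h) to 71.4% (shoots minus roots at 0.25 h). Shoots minus roots at the same time gave 25 of the 85, 13 of them of COR47 and LTI30. Differences of changes gave 14, 7 of them of the same genes. The rest of both are of COR15A and COR15B, which entered through shoots, and are description. Of all 85, 69 kept direction and call under every alternative run, 16 lost the call under at least 1, and none changed sign. Under at least 1 alternative, 20 uncalled values passed. The change between 12 h and 24 h enters these counts, and the 31 comparisons below, in both directions, so it is counted again with the opposite sign. In roots, the count of calls above the reference, 1 with 24 h, was 0 with 0.25 h; leaving out single arrays gave 0 to 6 (6 without replicate 1 of roots at 24 h), 0 to 1 calls against 0.25 h and 0 to 1 calls between neighbouring times. In shoots, leaving out single arrays gave 15 to 18 calls above 24 h (16 with all arrays), 14 to 18 against 0.25 h (15) and 14 to 17 between neighbouring times (15). With the replicate number as a block, 16 shoot and 1 root calls above 24 h remained in number, and the 14 differences between the organs' changes too. Over 91 pairs of groups the deviations of same-numbered arrays had a median correlation of -0.01, over 0.1 in 10 pairs, so the numbers were not taken as pairs. Counts over all probe sets moved by over 1.5 times in 31 comparisons; for example, the number called in shoots at 3 h against 24 h, 3522, had values down to 1948, that in shoots at 6 h against 3 h, 1915, values down to 885, that in roots at 12 h against 24 h, 1204, values down to 397, and that in roots at 1 h against 24 h, 9, values of 0 to 122. With 2 arrays per group, signals below the 40th percentile, as COR15A and COR15B have in roots, set no order of times.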
